A study of Homo sapiens with 4 samples.

Results

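The BCL2 family controls the integrity of the outer mitochondrial membrane and with it the mitochondrial route to cell death. The 10 family genes described here were taken by symbol and matched to Ensembl identifiers, and all 10 were found among the 58884 genes of the expression table. RNA was sequenced from 4 groups with 1 library each: 8505C cells transfected with a CRABP1-overexpressing construct, 8505C cells with empty vector, FTC-133 cells with the CRABP1 construct and FTC-133 cells with empty vector. 8505C is a human anaplastic thyroid carcinoma line and FTC-133 a human follicular thyroid carcinoma line. CRABP1 is a cytosolic protein that binds retinoic acid. The labels give neither the promoter of the construct nor whether the transfected cells were pools or clones, and each tumour type is represented by 1 line.

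Survival proteins of the family (MCL1, BCL-XL from BCL2L1, BCL2 and BCL2A1) restrain the effectors BAX and BAK1, which form pores in the outer membrane when activated. BH3-only proteins, here PMAIP1 (NOXA), BBC3 (PUMA), BCL2L11 (BIM) and HRK, are produced or released under stress, occupy the survival proteins and so free or activate the effectors. Cytochrome c then leaves the mitochondrion and caspases are activated. PMAIP1 binds mainly MCL1, HRK binds mainly BCL-XL, and BBC3 and BCL2L11 bind the survival proteins broadly. BCL2A1 is a known target of NF-kB.

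The promoters of HRK, PMAIP1 and BBC3 are shown because these BH3-only genes had the widest spread of log2(TPM + 1) over the 4 libraries and differed at least 2-fold between the lines in both pairs of libraries. Each window lies before the start of the gene in RefSeq (GRCh38.p14), outside all GENCODE 29 transcripts of that gene, and is written 5′ to 3′ on the strand of the gene. HRK is at chr12:116881442-116881691 (minus strand), PMAIP1 at chr18:59899746-59899947 (plus strand) and BBC3 at chr19:47232767-47232917 (minus strand). Capitals mark matches, on either strand, to GGGCGG (a GC box), CACGTG (an E-box) or TGATGNAA (a C/EBP-ATF element), and none of the matches overlap.
HRK: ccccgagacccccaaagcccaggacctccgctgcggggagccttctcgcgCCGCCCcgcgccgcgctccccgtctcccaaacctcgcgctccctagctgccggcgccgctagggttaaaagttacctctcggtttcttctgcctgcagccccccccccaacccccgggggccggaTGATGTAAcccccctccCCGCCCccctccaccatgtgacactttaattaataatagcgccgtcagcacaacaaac
PMAIP1: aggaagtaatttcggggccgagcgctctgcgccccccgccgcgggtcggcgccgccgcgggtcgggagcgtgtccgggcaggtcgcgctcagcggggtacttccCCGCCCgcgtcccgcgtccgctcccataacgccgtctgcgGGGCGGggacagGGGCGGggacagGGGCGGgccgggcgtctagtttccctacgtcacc
BBC3: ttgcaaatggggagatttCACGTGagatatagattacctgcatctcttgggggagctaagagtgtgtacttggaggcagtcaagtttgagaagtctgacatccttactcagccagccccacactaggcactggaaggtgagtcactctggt
Over the 250 bases before the start, the PMAIP1 promoter held 36 CpG sites at 72.8% GC and the HRK promoter 22 CpG sites at 66.4% GC. The BBC3 window was poorer in both, with 4 CpG sites at 49.2% GC. Only 1 window was examined for each of these 3 genes, so any other start of a gene is not covered. The medians over 35116 RefSeq promoters were 11 CpG sites and 58.0% GC. GGGCGG matched 4 times in PMAIP1 and 2 times in HRK, and 42.6% of all promoters hold it. TGATGNAA matched 1 time in HRK and is held by 3.14% of promoters, and CACGTG matched 1 time in BBC3 and is held by 6.34%. TATAAA, held by 10.7% of promoters, and the NF-kB consensus, held by 5.21%, had no match in these 3 promoters. These are matches of letters, not sites of binding. A promoter entry was found for 9 of the 10 genes, all but MCL1.

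Levels are in TPM, which are reads corrected for gene length and for library size, so that levels of different genes can be compared. The recovered read totals were 19304250 and 19174557 for 8505C with CRABP1 and with vector, and 20309248 and 20331464 for FTC-133 with CRABP1 and with vector. CRABP1 reached 537 TPM in 8505C and 385 TPM in FTC-133 with the construct, and was listed at 0 in both vector libraries, where 3 reads would be 0.594 TPM in 8505C and 0.555 TPM in FTC-133. Immune markers were below 1 TPM in every library (0 of 5 genes). Of 7 thyroid follicular markers, 1 (NKX2-1) reached 1 TPM in 8505C and 3 did in FTC-133, and TG and SLC5A5, which mark hormone-producing thyroid cells, stayed below 1 TPM in all 4 libraries. Intervals below are 95% and cover the counting of reads only. In bulk RNA, fewer expressing cells and less RNA per cell cannot be told apart.

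The survival genes made up most RNA of the 10 genes in 8505C, whereas survival and BH3-only genes held similar shares in FTC-133. The 4 survival genes summed to 560 and 580 TPM in 8505C with CRABP1 and with vector, and to 479 and 466 TPM in FTC-133 with CRABP1 and with vector. The 4 BH3-only genes summed to 90.7 and 84.3 TPM in 8505C and to 476 and 419 TPM in FTC-133. Survival RNA was thus 77.2% and 78.6% of the 10 genes in 8505C and 44.6% and 46.7% in FTC-133. BH3-only RNA was 12.5% and 11.4% in 8505C and 44.3% and 42.0% in FTC-133. The 2 effectors among the 10 genes held a similar share in all libraries, 10.3% and 9.93% in 8505C and 11.1% and 11.3% in FTC-133. This share leaves out the effector BOK, at 50.9 and 48.7 TPM in 8505C and at 0.424 and 0.685 TPM in FTC-133. The survival share leaves out the survival gene BCL2L2, at 43.3 and 41.2 TPM in 8505C and at 47.6 and 51.4 TPM in FTC-133. MCL1, BCL2L1 and PMAIP1 alone supplied 88.1% of the 10 genes' RNA in each 8505C library, and 85.5% and 86.5% in FTC-133.

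**Figure D1:**
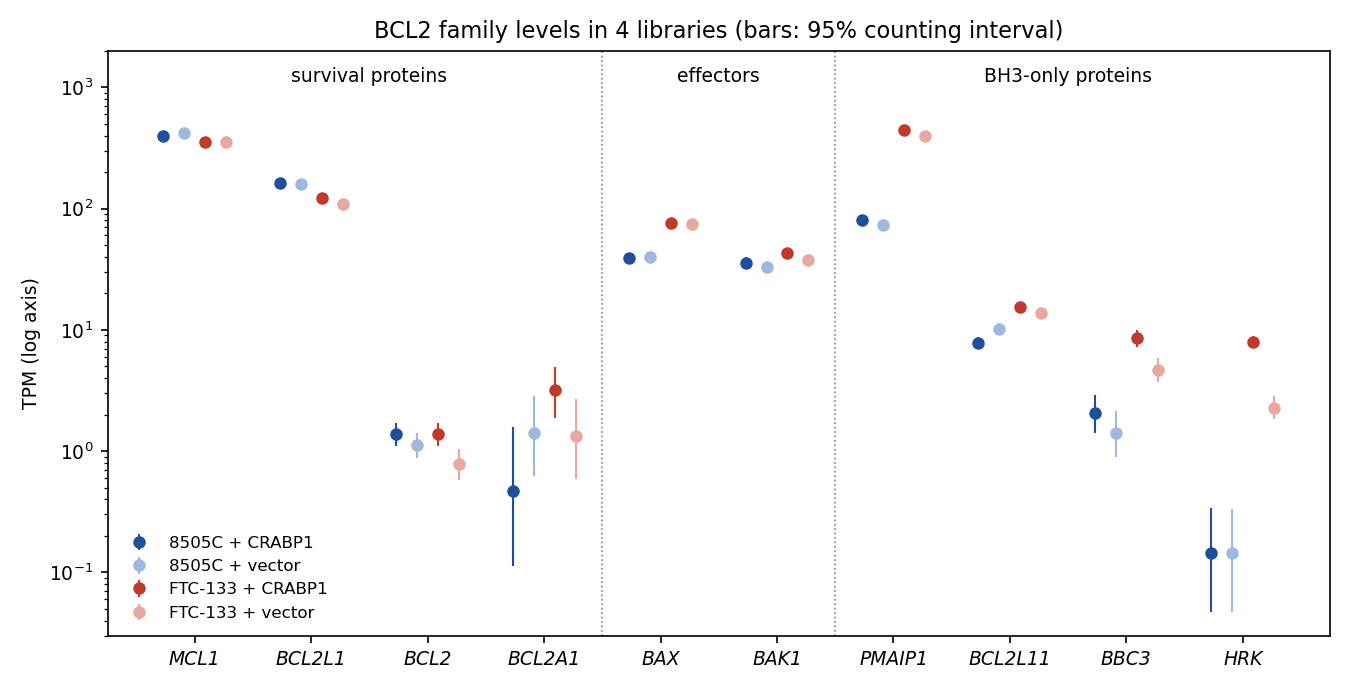
TPM of the 10 genes in the 4 libraries on a log axis, with bars for the 95% counting interval. PMAIP1, BBC3 and HRK lie lower in both 8505C libraries than in both FTC-133 libraries, while MCL1 stays between 353 and 417 TPM.

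**Figure D2:**
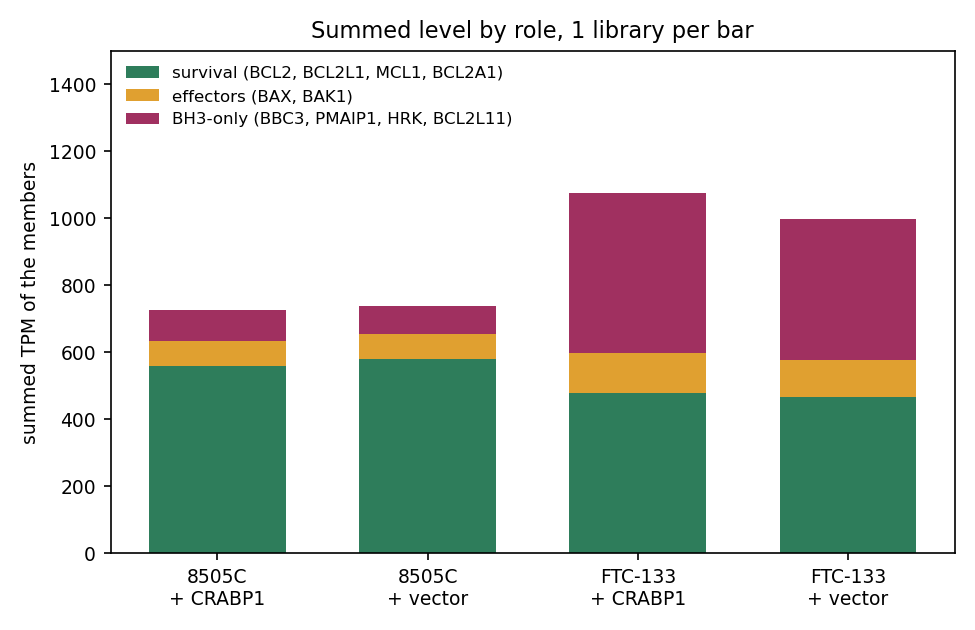
Summed TPM of the 4 survival genes, 2 effectors and 4 BH3-only genes, stacked, with 1 bar per library. The BH3-only segment is 90.7 and 84.3 TPM in 8505C with CRABP1 and with vector, and 476 and 419 TPM in FTC-133.

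MCL1 (ENSG00000143384, chr1:150574551-150579738, minus strand; coordinates of genes are GRCh38, GENCODE 29) encodes a short-lived survival protein. It was at 396 TPM in 8505C with CRABP1 and 417 TPM in 8505C with vector, and at 353 and 355 TPM in FTC-133 with CRABP1 and with vector. It was the most even of the 10 genes, with the highest library 1.18 times the lowest. BCL2L1 (ENSG00000171552, chr20:31664452-31723989, minus strand) was at 162 and 160 TPM in 8505C and at 121 and 109 TPM in FTC-133. Both 8505C libraries therefore lay above both FTC-133 libraries. Its exons overlap 1424 bases of the antisense gene ABALON, which was at 1.76 to 2.80 TPM.

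BCL2 (ENSG00000171791, chr18:63123346-63320128, minus strand), the founding member of the family, was scarce. It was at 1.37 and 1.12 TPM in 8505C with CRABP1 and with vector, and at 1.39 and 0.781 TPM in FTC-133. It made up 0.168% to 0.289% of the RNA of the 4 survival genes. BCL2A1 (ENSG00000140379, chr15:79960889-79971446, minus strand) was at 0.472 and 1.41 TPM in 8505C and at 3.17 and 1.32 TPM in FTC-133, with FTC-133 with CRABP1 the highest. Its values rest on 2.61 to 18.24 recovered reads, which were not whole with the gene length used here, so that its intervals are approximate.

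BAX and BAK1 are the effectors among these genes. BAX (ENSG00000087088, chr19:48954815-48961798, plus strand) was at 38.9 and 40.0 TPM in 8505C with CRABP1 and with vector, and at 76.3 and 74.7 TPM in FTC-133. BAK1 (ENSG00000030110, chr6:33572547-33580293, minus strand) was at 35.8 and 33.2 TPM in 8505C and at 42.8 and 37.7 TPM in FTC-133. BAX and BAK1 were close in 8505C, with BAX at 1.09 and 1.2 times BAK1, whereas BAX was at 1.79 and 1.98 times BAK1 in FTC-133. For BAX the lines did not overlap. For BAK1 both 8505C values lay below both FTC-133 values, but by little. With vector, its ratio of 8505C to FTC-133 was 0.882, with a counting interval that included 1 (0.767 to 1.01).

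PMAIP1 (ENSG00000141682, chr18:59899948-59904306, plus strand) supplied most RNA of the 4 BH3-only genes among the 10, 89.0% and 86.0% in 8505C and 93.3% and 95.1% in FTC-133. It was at 80.7 and 72.6 TPM in 8505C with CRABP1 and with vector, and at 444 and 399 TPM in FTC-133. In FTC-133 it was the most abundant of the 10 genes and ranked 175 and 191 among protein-coding genes, against ranks of 1795 and 2011 in 8505C. The TPM ratio of PMAIP1 to MCL1, the survival protein it binds, was 0.204 and 0.174 in 8505C and 1.26 and 1.12 in FTC-133. The shares above leave out BH3-only genes outside the 10. With vector, BAD, BMF and BID were at 39.1, 28.2 and 12.8 TPM in 8505C. In FTC-133 with vector they were at 12.7, 6.24 and 39.2 TPM.

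The other BH3-only genes among the 10 were lower in TPM. BCL2L11 (ENSG00000153094, chr2:111119378-111168447, plus strand) was at 7.79 and 10.2 TPM in 8505C with CRABP1 and with vector, and at 15.4 and 13.7 TPM in FTC-133; its exons overlap 727 bases of MIR4435-2HG on the opposite strand, which was at 17.3 to 24.2 TPM. BBC3 (ENSG00000105327, chr19:47220822-47232766, minus strand) was at 2.05 and 1.42 TPM in 8505C and at 8.52 and 4.68 TPM in FTC-133. For both genes the lines did not overlap. HRK (ENSG00000135116, chr12:116856144-116881441, minus strand) was at 0.144 and 0.143 TPM in 8505C, from 5 reads in each library, and at 7.91 and 2.28 TPM in FTC-133, from 286 and 85 reads. HRK had the widest spread of the 10 genes, with the highest library 55.1 times the lowest. In order of level, FTC-133 ran from PMAIP1 over MCL1, BCL2L1, BAX, BAK1, BCL2L11, BBC3, HRK and BCL2A1 down to BCL2; the counting intervals of BBC3 and HRK overlapped with CRABP1, and those of HRK, BCL2A1 and BCL2 overlapped between neighbours with vector. In 8505C, MCL1 and BCL2L1 came before PMAIP1 and HRK came last. There the intervals of BAX and BAK1 overlapped, as did those of BBC3, BCL2 and BCL2A1 and, with CRABP1, of BCL2A1 and HRK.

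With CRABP1, FTC-133 cells had more HRK and BBC3 RNA than with vector, while MCL1 and BAX were nearly level. HRK was at 7.91 TPM with CRABP1 and 2.28 TPM with vector, 3.47-fold higher (2.72 to 4.48). It was the only gene of the 10 past 2-fold on the scale of log2(TPM + 1), at 1.44. Among the 19899 genes averaging 1 TPM or more in these libraries, 6.02% were at least 2-fold higher and 4.92% at least 2-fold lower; among protein-coding genes with 20 or more reads these shares were 2.06% and 1.47%. BBC3 was 1.82-fold higher (1.38 to 2.42, 143 and 81 reads with CRABP1 and with vector). BCL2 was 1.77-fold higher (1.24 to 2.57, 86 and 50 reads). Both intervals excluded a ratio of 1, but neither gene reached 2-fold.

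PMAIP1 and BCL2L1 were each 1.11-fold higher in FTC-133 with CRABP1 (1.07 to 1.16 for PMAIP1 and 1.04 to 1.18 for BCL2L1). BAK1 had a ratio of 1.13 (0.997 to 1.29), BCL2L11 of 1.12 (0.992 to 1.27), BAX of 1.02 (0.937 to 1.11) and MCL1 of 0.995 (0.965 to 1.03), and these 4 intervals included 1. BCL2A1 had a plain ratio of 2.41 (0.96 to 6.17), also including 1, and a log2(TPM + 1) ratio of 0.85. On the log2 scale 9 of the 10 genes lay above 0 and their median was 0.17, against 0.06 over all tested genes. The sign of BAX depended on the scaling, with a log2 ratio of 0.03 as deposited and -0.03 after median-ratio scaling.

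In 8505C none of the 10 genes was past 2-fold with CRABP1. HRK and BCL2A1 averaged under 1 TPM there and were not counted, which left 8 genes. The background was 3.7% of 17561 genes at least 2-fold higher and 4.07% at least 2-fold lower, and 0.233% and 0.5% among protein-coding genes with 20 or more reads. BCL2L11 was at 7.79 TPM with CRABP1 and 10.2 TPM with vector, 1.31-fold lower (1.11 to 1.55). MCL1 had a ratio of 0.949 (0.921 to 0.977) and PMAIP1 of 1.11 (1.01 to 1.22). These 3 genes had intervals that excluded 1. BBC3, at 1.44 (0.82 to 2.57), BCL2, at 1.23 (0.878 to 1.72), BAK1, at 1.08 (0.934 to 1.24), BCL2L1, at 1.01 (0.957 to 1.07), and BAX, at 0.973 (0.859 to 1.1), had intervals that included 1. The median log2 ratio of the 8 genes was 0.06, against 0.02 over all tested genes. With 5 reads in either library, a difference in HRK of the size seen in FTC-133 lay within its interval (0.231 to 4.36) and was not excluded.

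**Figure D3:**
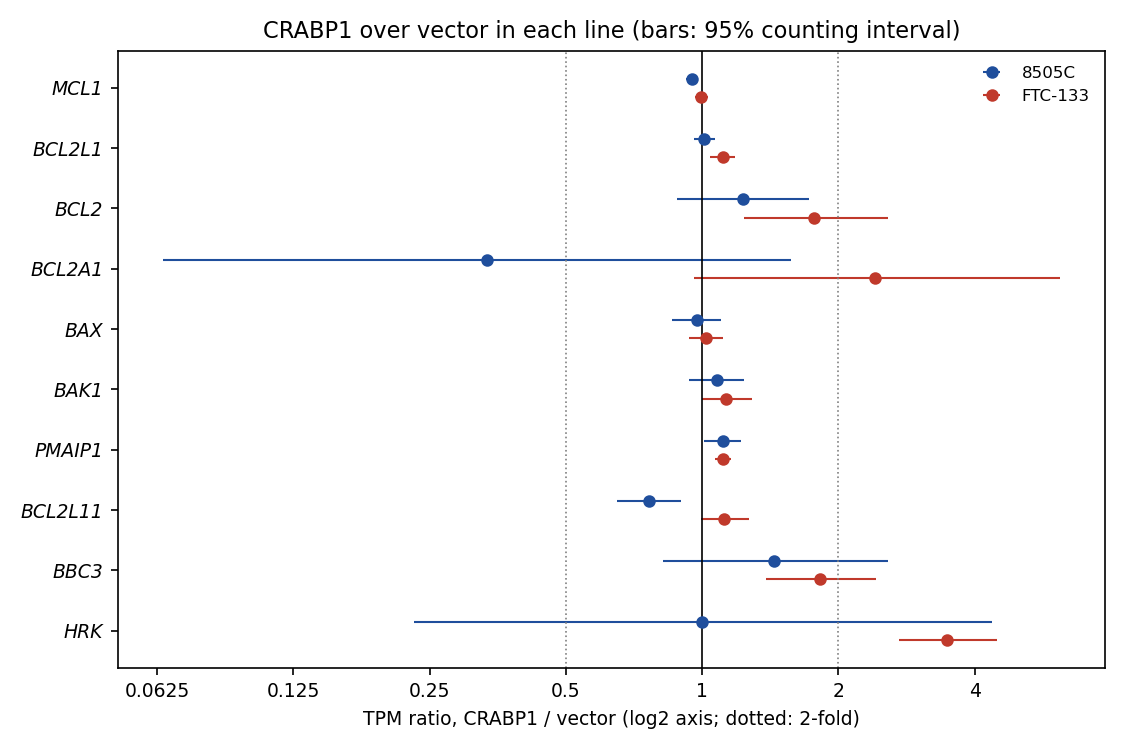
TPM ratio of CRABP1 over vector for each gene in FTC-133 and in 8505C on a log2 axis, with 95% counting intervals and dotted lines at 2-fold. HRK is at 3.47 in FTC-133, BCL2L11 lies below 1 in 8505C, and the interval of BCL2A1 includes 1 in both lines.

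Over both lines, with the lines as the replicates, none of the 10 genes passed limma for CRABP1 against vector. The fit called 1 of 19513 genes (0.00512%) at a Benjamini-Hochberg adjusted p of 0.05, CRABP1 itself, and 923 genes had an unadjusted p under 0.05, none of them among the 10. BBC3 had the smallest unadjusted limma p of the 10 genes (0.107; adjusted 0.92), with a log2 difference of 0.54 (SE 0.254), and was higher with CRABP1 in both lines. The limma log2 difference of HRK was 0.72 (SE 0.494) and that of BCL2 0.29 (SE 0.357). BCL2 was the one gene of the 10 for which both CRABP1 libraries lay above both vector libraries, at 1.37 and 1.39 TPM against 1.12 and 0.781 TPM. Adjusted limma p-values of the 10 genes ran from 0.92 to 0.999. The fit has 1 residual degree of freedom, the labels do not say whether the libraries came from separate cultures, and the p-values reflect only how these 4 libraries vary.

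Between the lines, PMAIP1, BBC3 and HRK were at least 2-fold lower in 8505C than in FTC-133 in both pairs of libraries, and none of the 10 genes was at least 2-fold higher. With CRABP1, 4 of 10 genes were at least 2-fold lower, against 23.0% of 19603 genes lower and 11.3% higher; with vector, 3 of 9 tested genes were, against 21.6% of 19470 genes lower and 12.1% higher. Among protein-coding genes with 20 or more reads, the background was 17.3% lower and 9.38% higher with CRABP1, and 16.6% lower and 9.98% higher with vector. PMAIP1 was 5.5-fold lower with CRABP1 (5.13 to 5.91) and 5.49-fold lower with vector (5.1 to 5.92). BBC3 was 4.16-fold lower with CRABP1 (2.84 to 6.28) and 3.29-fold lower with vector (2.05 to 5.48). HRK was 55.0-fold lower with CRABP1 (23.3 to 171) and 15.9-fold lower with vector (6.55 to 50.2), on 5 reads in each 8505C library. BCL2A1, which passed only in the CRABP1 pair, was 6.73-fold lower (1.68 to 30.6). HRK in both pairs and BCL2A1 in the CRABP1 pair reached a mean of 1 TPM only through FTC-133, where they were higher, so the filter in part fixed that they counted as lower, and the counts above are a description. These comparisons share their libraries with those of CRABP1 against vector.

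BAX was just under 2-fold lower in 8505C, by 1.96-fold with CRABP1 (1.76 to 2.18) and 1.87-fold with vector (1.68 to 2.07). BCL2L1 was higher in 8505C, by 1.34-fold with CRABP1 (1.27 to 1.42) and 1.47-fold with vector (1.39 to 1.56). MCL1 was 1.12-fold higher with CRABP1 and 1.17-fold higher with vector. The median log2 ratio of the genes tested was -0.93 with CRABP1 and -0.39 with vector, against -0.21 and -0.17 over all genes. Median-ratio scaling shifted the log2 scale of plain TPM up by 0.18 with CRABP1 and by 0.14 with vector, and low genes moved by less on log2(TPM + 1): HRK went to -2.85 in place of -2.96 with CRABP1.

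**Figure D4:**
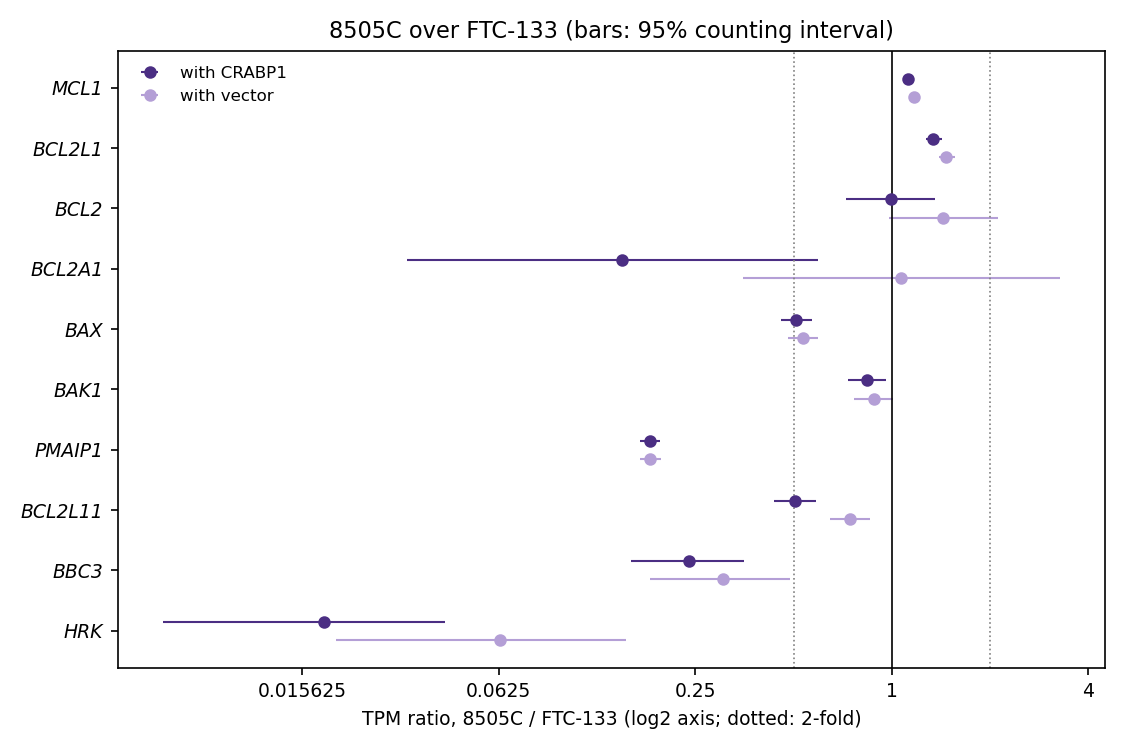
TPM ratio of 8505C over FTC-133 for each gene, with CRABP1 and with vector, on a log2 axis with 95% counting intervals and dotted lines at 2-fold. PMAIP1, BBC3 and HRK lie beyond 2-fold on the lower side in both pairs, and BCL2L1 and MCL1 lie above 1.

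In limma, with the transfections as the replicates of a line, 5 of the 10 genes had an adjusted p under 0.05, 4 lower and 1 higher in 8505C; over all 19513 genes 35.2% passed, 22.2% lower and 13.0% higher. PMAIP1 fell by 2.44 on the log2 scale (SE 0.0907, limma adjusted p = 0.00342). BAX fell by 0.92 (SE 0.0999, limma adjusted p = 0.0115) and BBC3 fell by 1.44 (SE 0.254, limma adjusted p = 0.027). HRK had a log2 difference of -2.24 (SE 0.494, limma adjusted p = 0.041), but it entered the fit only through its FTC-133 levels, and without the filter its limma adjusted p was 0.122. BCL2L1 rose by 0.49 (SE 0.0976, limma adjusted p = 0.0342). The call of PMAIP1 held in 7 of 7 alternatives (limma adjusted p 0.00117 to 0.0412), that of BAX in 6 of 7 (0.00397 to 0.0522), that of BBC3 in 5 of 6 (0.0313 to 0.092), that of BCL2L1 in 5 of 7 (0.019 to 0.116) and that of HRK in 3 of 6 (0.0359 to 0.122). BCL2L11 had a log2 difference of -0.65 (SE 0.196) and did not pass (limma adjusted p = 0.0772), except without a term for transfection (limma adjusted p = 0.0496). MCL1 (0.20), BAK1 (-0.21), BCL2A1 (-0.72) and BCL2 (0.12) did not pass either, with limma adjusted p-values of 0.187, 0.2, 0.337 and 0.809 in that order. The 2 libraries of a line are not independent isolates of a tumour type.

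Other BCL2 family genes are set here against the 22.2% of all genes that fell and the 13.0% that rose in 8505C by limma. Of 8 BH3-only genes, the 4 members included, 4 (HRK among them) fell and 2 rose in 8505C by limma. BID, which links death receptors to mitochondria, was at 12.2 and 12.8 TPM in 8505C and at 34.8 and 39.2 TPM in FTC-133 (log2 difference -1.49, limma adjusted p = 0.00774). BMF rose by 1.57 (limma adjusted p = 0.0258) and BAD by 1.33 (limma adjusted p = 0.0141), so that the BH3-only genes did not all differ in one direction. Of 3 effectors, 1 fell (BAX) and 1 rose: BOK, a relative of BAX, was at 50.9 and 48.7 TPM in 8505C and at 0.424 and 0.685 TPM in FTC-133 (log2 difference 5.04, limma adjusted p = 0.00342). BOK averaged 0.555 TPM in FTC-133 and entered the fit only through its 8505C levels. Of 5 fitted survival genes, 1 rose (BCL2L1) and 0 fell. Of 9 fitted genes of the other BCL2 homology and BNIP list, 1 rose and 2 fell.

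Genes of a stress pathway known to induce BH3-only genes were mostly lower in 8505C. Of 10 ATF4 and CHOP stress genes, 7 fell and 0 rose by limma, against 22.2% and 13.0% of all genes. Their median log2 difference was -1.95, against -0.19 over all genes. DDIT3, which encodes the transcription factor CHOP, was at 21.4 and 18.0 TPM in 8505C and at 249 and 193 TPM in FTC-133. ATF4 itself had a log2 difference of -0.39 and did not pass (limma adjusted p = 0.0509). Of 13 fitted p53-induced death and arrest genes, 6 fell and 2 rose in 8505C by limma. The median log2 difference of that list was -0.54. Whether the ATF4 and CHOP pathway or p53 has a part in the levels of the BH3-only genes was not tested.

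Downstream and upstream of the family, the lists differed in how many genes passed limma. Over all genes 35.2% passed, 22.2% lower and 13.0% higher in 8505C, and the lists lay on both sides of the 35.2%. Of 16 apoptosome, caspase and IAP genes, 1 fell and 0 rose in 8505C: CYCS, which encodes cytochrome c, was at 78.1 and 65.4 TPM in 8505C and at 217 and 158 TPM in FTC-133 (limma adjusted p = 0.00712). Of 15 fitted death receptor genes, 4 fell and 3 rose. FAS, a death receptor, fell by 1.74 on the log2 scale (limma adjusted p = 0.0131), and TNFRSF10D, a decoy receptor for TRAIL, rose by 5.26 (limma adjusted p = 0.00355). TNFRSF10D averaged 0.365 TPM in FTC-133 and entered the fit only through its 8505C levels. TRADD, an adaptor of TNF receptors, was listed at 0 in both 8505C libraries and was at 14.4 and 11.3 TPM in FTC-133. TRADD entered the fit only through FTC-133. By limma, 0 of 12 mitochondrial partners of BAX and BAK rose and 4 fell, 5 of 12 regulators of MCL1 and BIM protein stability rose and 2 fell, 4 of 14 fitted transcription factors rose and 4 fell, and 3 of 9 fitted NF-kB-induced survival genes rose and 2 fell.

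Cell type markers differed between the lines as well. Epithelial markers summed to 1365 and 1604 TPM in 8505C with CRABP1 and with vector and to 169 and 171 TPM in FTC-133, with 2 of 5 genes at 1 TPM or more in 8505C and 4 of 5 in FTC-133. Fibroblast markers summed to 71.9 and 55.0 TPM in 8505C and to 352 and 614 TPM in FTC-133, but not all in one direction: COL1A1 averaged 0.982 TPM in 8505C and 281 TPM in FTC-133, and COL3A1 averaged 58.0 TPM in 8505C and 3.07 TPM in FTC-133. Endothelial markers summed to 101 and 108 TPM in 8505C, nearly all of it CDH5 at 97.9 and 103 TPM, and to 8.92 and 6.56 TPM in FTC-133. Thyroid markers summed to 114 and 118 TPM in 8505C and to 178 and 154 TPM in FTC-133, from different genes: NKX2-1 averaged 116 TPM in 8505C and 31.2 TPM in FTC-133, and PAX8 averaged 0.2 TPM in 8505C and 122 TPM in FTC-133. The part of these differences in the results for the 10 genes was not tested.

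With CRABP1 against vector, 2 of 7 tested NF-kB-induced survival genes lay above 0 on the log2 scale in 8505C and 8 of 9 did in FTC-133. In 8505C, 0 were at least 2-fold higher, against 3.7% of all genes, and the median log2 ratio was -0.33, against 0.02 over all genes. In FTC-133, 3 were at least 2-fold higher, against 6.02% of all genes, and the median was 0.85, against 0.06 over all genes. This list holds BCL2A1 and BCL2L1. BCL2A1 itself had a log2 ratio of 0.85 in FTC-133. It was not tested in 8505C, so the medians cover different genes. BIRC3, an inhibitor of apoptosis protein, was at 2.28 TPM with CRABP1 and 3.82 TPM with vector in 8505C, and at 5.72 TPM with CRABP1 and 1.44 TPM with vector in FTC-133. NFKBIA, which encodes the NF-kB inhibitor IkB-alpha, was at 50.6 and 78.4 TPM in 8505C and at 159 and 69.6 TPM in FTC-133. RELB, an NF-kB subunit from the list of 14 tested transcription factors (median 0.11 in 8505C and 0.38 in FTC-133), was at 4.32 and 6.52 TPM in 8505C and at 44.5 and 17.5 TPM in FTC-133. The difference between the lines was not tested for these genes.

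The ATF4 and CHOP stress genes had median log2 ratios of 0.37 in 8505C and 0.55 in FTC-133 with CRABP1, with 2 of 10 genes at least 2-fold higher in 8505C (3.7% of all genes) and 1 of 10 in FTC-133 (6.02% of all genes). CHAC1, a glutathione-degrading enzyme, was at 19.0 TPM with CRABP1 and 1.44 TPM with vector in 8505C, and at 56.2 and 50.1 TPM in FTC-133. TRIB3, a pseudokinase induced by CHOP, was at 62.3 and 43.7 TPM in 8505C and at 235 and 107 TPM in FTC-133. In 8505C, TNFSF10, which encodes the death ligand TRAIL, was at 4.76 TPM with CRABP1 and 13.5 TPM with vector, and BMF at 14.5 and 28.2 TPM. BNIP3, a mitophagy receptor induced by hypoxia, was lower with CRABP1 in both lines, at 116 and 164 TPM in 8505C and at 46.9 and 105 TPM in FTC-133. In the limma fit over both lines 0 genes of any of these lists passed for CRABP1. Fibroblast markers in FTC-133 summed to 352 TPM with CRABP1 and 614 TPM with vector. Of the 4 tested there, 3 lay below 0 and 1 above 0 on the log2 scale, from -1.15 to 0.88. The part of these markers in the results was not tested.

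**Figure D5:**
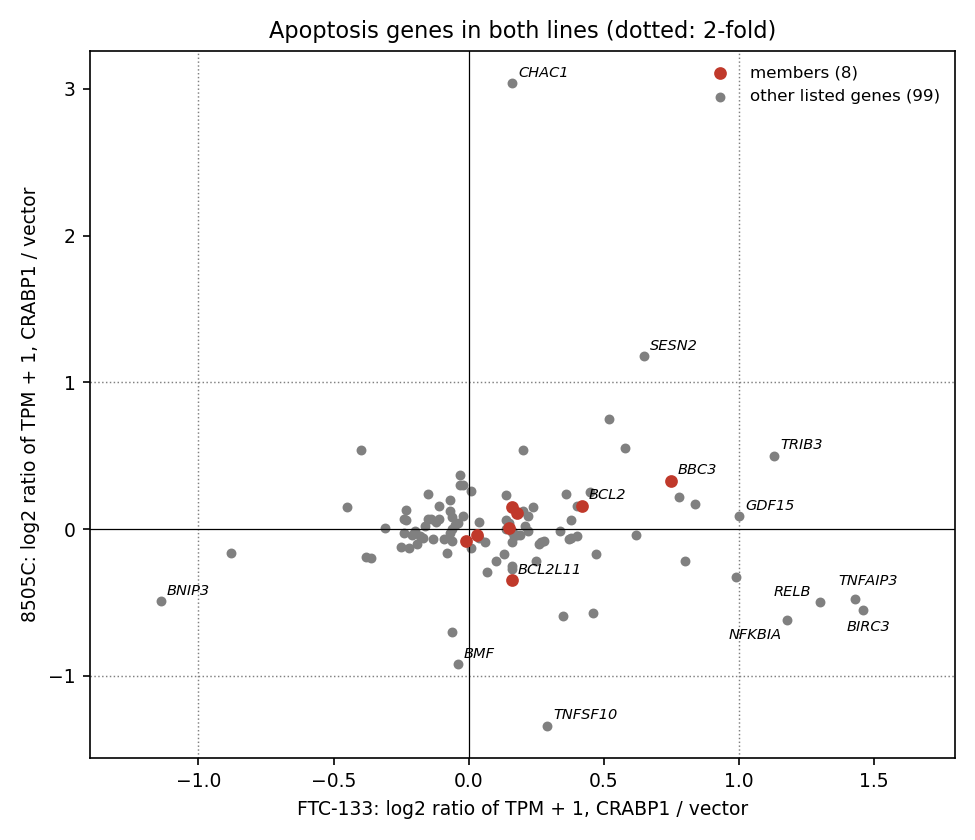
Log2 ratio of TPM + 1, CRABP1 over vector, in FTC-133 (x axis) and 8505C (y axis) for the 8 members and 99 other listed genes tested in both lines, with dotted lines at 2-fold. BBC3 and BCL2 lie above 0 in both lines, BCL2L11 lies below 0 in 8505C, and BIRC3, TNFAIP3, RELB and NFKBIA lie below 0 in 8505C and above 0 in FTC-133.

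The genes with the most similar patterns were found for the 3 members with the widest spread on log2(TPM + 1), by the Euclidean distance between log2(TPM + 1) profiles centred on their means, over 4 libraries and 10570 protein-coding genes averaging 5 TPM or more. Nearest to HRK were RND3 (distance 0.17), OAS1 (0.33) and COL18A1 (0.334); RND3 was at 166 and 150 TPM in 8505C with CRABP1 and with vector, and at 1119 and 466 TPM in FTC-133. Nearest to PMAIP1 were PXK (0.098), SYT1 (0.133) and PDLIM3 (0.145); PXK was at 10.5 and 9.99 TPM in 8505C and at 67.6 and 57.8 TPM in FTC-133. Nearest to BBC3 were S100A2 (0.028), MORN4 (0.08) and FAM241A (0.096); S100A2 was at 18.0 and 14.4 TPM in 8505C and at 59.5 and 34.5 TPM in FTC-133. A profile of 4 libraries is short, and the distances are a description only.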

How the data were processed

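Total RNA of 4 libraries was sequenced, 1 per line and transfection. The authors deposited 1 table of TPM values; the tools were featureCounts 2.0.0, Trimmomatic 0.38 and FastQC, with build GRCh38, per the submitters' processing notes. The aligner, annotation and strand setting were not given in the sources used here, so reads of overlapping antisense genes cannot be told apart. Members and lists were chosen with earlier results of these data known. Reads were recovered from TPM and GENCODE 29 exon lengths; 90.5% to 91.6% of values up to 50 reads were whole within 0.02. They served for 95% exact Poisson intervals of levels, Clopper-Pearson intervals of ratios and floors of 3 reads. Genes past 2-fold were counted on log2(TPM + 1), which understates ratios of low genes, where the compared libraries averaged 1 TPM or more. limma 3.58.1 (R 4.3.3, trend, two-sided, Benjamini-Hochberg) was fitted to all 4 libraries with line and transfection as terms. A run on simulated data served as a check of the code and does not measure how reliable the calls are here. Python 3.11.15, pandas 2.3.3, NumPy 2.4.6 and SciPy 1.17.1 were used. Named genes were the members and list genes past 2-fold in a comparison. Up to 4 genes per list with the largest ratio within a line were also named. So were the 3 nearest genes by profile of 3 members. ABALON, MIR4435-2HG, BCL2L2 and ATF4 were added after their values were seen. Some genes are not reported here. Alternatives changed the pseudocount, filter, scaling, fold, trend or terms; protein-coding genes with 20 or more reads were added after seeing the data. Promoter sequences are RefSeq's (GRCh38.p14).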

Additional observations from a re-analysis of the deposited data

Results flagged for a closer look

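For 3 genes the ratio of CRABP1 over vector had opposite signs in the lines, and with 1 library per group the difference between the lines was not tested. The log2(TPM + 1) ratio of BCL2A1 was -0.71 in 8505C and 0.85 in FTC-133, a difference of -1.56, on 2.61 to 18.24 reads per library. That of BCL2L11 was -0.35 in 8505C and 0.16 in FTC-133, a difference of -0.51. That of BAX was -0.04 in 8505C and 0.03 in FTC-133, a difference of -0.07, and the sign in FTC-133 turned with median-ratio scaling (-0.03).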

How the results depend on the processing

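The count of members past 2-fold with CRABP1 in FTC-133 was 1 (HRK), and became 2 with a pseudocount of 0.1 (BCL2A1 added) and 3 at 1.5-fold (BCL2A1 and BBC3 added). At a mean of at least 5 TPM, the count between the lines became 2 in place of 4 with CRABP1 (BBC3 and PMAIP1) and 1 in place of 3 with vector (PMAIP1), since fewer genes were tested. The limma count between the lines was 5, and became 1 without a filter (PMAIP1), 3 at a mean of at least 5 TPM (BCL2L1, BAX and PMAIP1) and 3 without a trend (BAX, BBC3 and PMAIP1). It was 4 without mitochondrially encoded genes (HRK lost) and 6 without a term for transfection (BCL2L11 gained). Fewer genes were tested at 5 TPM, and for the other settings the cause was not tested. The counts of 0 in 8505C and in limma for CRABP1 stayed at 0 under every alternative run. Shifts of single log2 ratios were set against the wider side of the counting interval of the plain TPM ratio on the log2 scale. Of 120 ratios under alternatives, 108 moved by less than that, 12 moved by at least that, and none that was past 2-fold changed sign. Leaving out a library leaves no residual degree of freedom and was not run. The labels carry no replicate numbers; the limma fit for CRABP1 already held the line as a block, and without that term it also called 0 members. Depth limits BCL2A1 and, in 8505C, HRK and BBC3.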
